A study of Mus musculus with 2 samples.

Results

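Nuclei with transcripts of 5 genes of resident tissue macrophages, F13a1, Mrc1, Cd163, Lyve1 and Retnla, made up 224 of the 1115 macrophage nuclei in a single-nucleus RNA dataset of 1838 barcodes from mouse mammary tumours. They are called resident gene nuclei here, after those 5 genes. A barcode counted as a macrophage nucleus if it had at least 1000 unique molecular identifiers (UMIs, each standing for 1 captured RNA molecule), at most 5% of them from mitochondrially encoded genes, at least 3 UMIs in sum of Csf1r, Adgre1, Mertk, Ptprc and the C1q genes, and under 1000 CPM (the usual depth-scaled unit, each nucleus or group brought to the same total) in sum of the epithelial genes Epcam, Krt8, Krt18, Cdh1 and Elf5. A macrophage nucleus was a resident gene nucleus if the 5 genes summed to at least 3 UMIs. The remaining 891 macrophage nuclei are the other macrophage nuclei.

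The study set tumour-associated macrophages of MYC-PyMT mice, which hold the polyoma middle T oncogene, S100a8-cre and, at Rosa26, a MYC allele that cre switches on, against those of control-PyMT mice, with 1 sample per genotype. S100a8-cre is a driver used for neutrophils and their precursors. All recipients were backcrossed to B6, were lethally irradiated at 7 weeks of age, received marrow of Fcgr1-cre donors with a cre-dependent H2B-mCherry allele at Rosa26, and were moved 2 weeks later to a low protein diet for 6 weeks. Nuclei came from live cells stained for CD45, F4/80 and Vcam and not for Siglec-F, Ly6G, B220 or Ly6C, and were sorted once more for mCherry and against CD11b. The barcodes carry the suffix 1 or 2, 1 for each library, and the labels tie neither suffix to a genotype, so the genotypes are not compared. The labels give neither the number of mice nor any pooling. The 2 suffixes are given side by side as libraries of unknown genotype. With 1 library of each, no p-value applies: ranges in brackets are exact 95% intervals that cover counting error only, and a gene is called higher or lower where its ratio passed 2-fold.

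F13a1 encodes the A subunit of coagulation factor XIII, a transglutaminase. Mrc1 encodes the mannose receptor, Cd163 the scavenger receptor for haemoglobin bound to haptoglobin, Lyve1 a hyaluronan receptor, Retnla a secreted resistin-like protein induced by interleukin 4 through STAT6, and Ednrb the type B endothelin receptor. In many tissues, macrophages near vessels express Lyve1, Mrc1 and Folr2 with little MHC class II, and other interstitial macrophages express MHC class II and Ccr2 or Cx3cr1. In PyMT tumours, tumour-associated macrophages have been described as Vcam1-positive cells of monocyte origin, and mammary tissue macrophages as cells with more CD11b and Mrc1.

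The start-site regions of the rule genes other than Lyve1, and of the marker Ednrb, are printed because the results turn on these genes. Lyve1 had no entry among the start sites used. Each runs 5′ to 3′ on the gene's strand from 250 bases before to 50 after a start site in RefSeq (GRCm38.p6). F13a1 lies at chr13:37050195-37050494 on the minus strand, Mrc1 at chr2:14229164-14229463 on the plus strand, Cd163 at chr6:124304401-124304700 on the plus strand, Retnla at chr16:48842359-48842658 on the plus strand and Ednrb at chr14:103843652-103843951 on the minus strand. Capitals mark matches, on either strand, to GAGGAA (the core bound by the macrophage factor PU.1), to TGCTGA (an arm of the recognition element of MAF factors) and to the STAT palindrome TTCNNNNGAA.

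F13a1: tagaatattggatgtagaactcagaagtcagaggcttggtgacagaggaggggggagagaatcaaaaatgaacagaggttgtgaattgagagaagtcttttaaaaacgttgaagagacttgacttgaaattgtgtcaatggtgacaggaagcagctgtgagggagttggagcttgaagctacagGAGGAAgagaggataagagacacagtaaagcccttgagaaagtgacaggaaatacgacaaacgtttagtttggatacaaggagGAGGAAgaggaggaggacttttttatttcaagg
Mrc1: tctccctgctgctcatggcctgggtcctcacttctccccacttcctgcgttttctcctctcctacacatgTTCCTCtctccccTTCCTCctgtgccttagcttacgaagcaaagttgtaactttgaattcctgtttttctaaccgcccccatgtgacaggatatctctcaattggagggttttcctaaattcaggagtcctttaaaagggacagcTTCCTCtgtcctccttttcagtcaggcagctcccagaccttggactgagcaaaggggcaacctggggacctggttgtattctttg
Cd163: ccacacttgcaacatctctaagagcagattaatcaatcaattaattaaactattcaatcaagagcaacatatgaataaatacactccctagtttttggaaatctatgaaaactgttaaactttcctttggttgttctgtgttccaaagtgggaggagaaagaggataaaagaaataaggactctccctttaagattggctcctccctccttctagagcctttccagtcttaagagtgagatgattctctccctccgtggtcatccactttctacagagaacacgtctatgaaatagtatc
Retnla: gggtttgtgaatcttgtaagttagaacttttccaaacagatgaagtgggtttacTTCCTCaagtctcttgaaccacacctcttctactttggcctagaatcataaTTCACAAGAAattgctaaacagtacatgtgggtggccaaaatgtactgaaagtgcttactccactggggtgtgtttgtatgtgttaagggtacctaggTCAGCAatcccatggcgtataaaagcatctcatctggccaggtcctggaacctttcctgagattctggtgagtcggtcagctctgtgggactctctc
Ednrb: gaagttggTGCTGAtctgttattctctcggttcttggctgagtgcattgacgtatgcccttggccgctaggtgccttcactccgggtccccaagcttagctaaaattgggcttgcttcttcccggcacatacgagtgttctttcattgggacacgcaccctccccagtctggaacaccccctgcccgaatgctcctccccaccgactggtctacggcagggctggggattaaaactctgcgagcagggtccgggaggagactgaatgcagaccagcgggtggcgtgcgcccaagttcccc

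GAGGAA was found 2 times in the printed F13a1 window, 3 times in that of Mrc1, where the capitals show its reverse complement, and 1 time in that of Retnla. A further F13a1 start site, with its window at chr13:37049164-37049463 and not printed, held GAGGAA 1 time and the other 2 motifs 0 times. TGCTGA was found 1 time each in the windows of Retnla and Ednrb, and the STAT palindrome 1 time, in that of Retnla. The Cd163 window held 0 matches to any of them. Of all 32851 RefSeq promoter windows of this length, 28.3% held GAGGAA, 19.5% TGCTGA and 6.95% the STAT palindrome, so the first 2 are common words. The matches describe letters and not bound sites.

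The libraries stood apart in their share of resident gene nuclei and in sex-linked transcripts. Suffix 2 held 179 resident gene nuclei among 339 macrophage nuclei, a share of 52.8% (47.3 to 58.2), and suffix 1 held 45 among 776, a share of 5.80% (4.26 to 7.68). Depth was similar: resident gene nuclei had a median of 3293 UMIs in suffix 2 and 3110 in suffix 1, and the other macrophage nuclei 3010.5 and 3015. The libraries shared 9 barcode sequences among all barcodes and 0 among macrophage nuclei. The 4 Y-linked genes Uty, Ddx3y, Kdm5d and Eif2s3y summed to 633 CPM (574 to 697) in resident gene nuclei of suffix 2 and 709.7 CPM (641 to 784) in other macrophage nuclei of suffix 2, whereas those of suffix 1 held 1 and 0 UMIs. Xist, the RNA that coats the inactive X chromosome, ran the other way, with 1901 CPM in resident gene nuclei and 1844 CPM in other macrophage nuclei of suffix 1, and 3.04 and 7.28 CPM in those of suffix 2. Epithelial nuclei passed the same UMI and mitochondrial limits. They had at least 1000 CPM of the epithelial genes and under 3 UMIs of the macrophage genes. The 18 epithelial nuclei of suffix 2 carried Xist at 1265 CPM and 1 Y-linked UMI. Macrophage nuclei of suffix 2 and epithelial nuclei of the same library thus differ in sex-linked transcripts. The sex of recipients and donors is not in the labels used here.

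**Figure D1:**
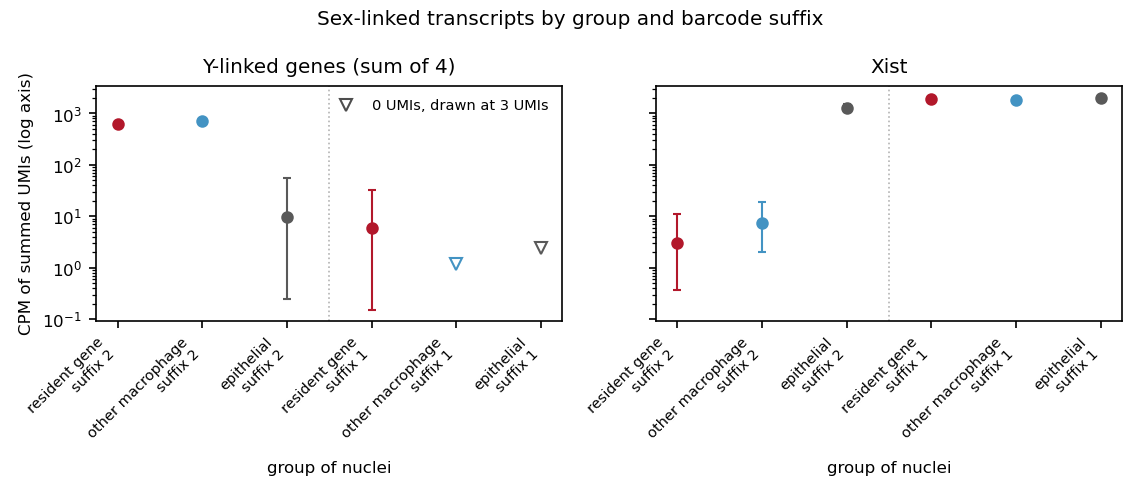
Summed CPM (log axis) of the 4 Y-linked genes and of Xist in resident gene, other macrophage and epithelial nuclei of each barcode suffix, with exact 95% intervals for counting error and open triangles where 0 UMIs were seen. Y-linked transcripts lie at 633 and 709.7 CPM in the macrophage groups of suffix 2, and Xist is high in every other group.

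Because 20.1% of resident gene nuclei and 82.0% of other macrophage nuclei came from suffix 1, a pooled ratio mixes the libraries. Pooled, Xist stood at 0.256 and the Y-linked sum at 3.98 times the level of other macrophage nuclei. Within a suffix, the Y-linked sum of suffix 2 had a ratio of 0.892 (0.775 to 1.03) and Xist in suffix 1 one of 1.03 (0.917 to 1.15). Of 8141 genes tested on the pool, 7.21% were higher and 7.91% lower. The results below are given within each suffix, except where the pool is named.

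In suffix 2, F13a1 and Mrc1 were seen in most resident gene nuclei, and Cd163, Lyve1, Retnla and Ednrb in 24 to 30 of the 179 each. F13a1 had 1556 UMIs in 142 resident gene nuclei (2362 CPM), against 24 UMIs in 19 other macrophage nuclei (43.7 CPM). Mrc1 had 1785 UMIs in 173 resident gene nuclei (2709.6 CPM), against 56 UMIs in 46 other macrophage nuclei (102 CPM). Cd163 was seen in 30 resident gene nuclei at 170.02 CPM and in 1 other nucleus at 1.82 CPM. These 5 genes chose the nuclei, so their levels are a description and no finding. Lyve1 had 95 UMIs in 29 of the 179 nuclei, a share of 16.2% (11.1 to 22.4), against 0 UMIs in the 160 other macrophage nuclei, which the rule had cut on this gene. The floor of 3 nuclei there is 1.88% and the exact upper limit 2.28%, both for nuclei with a UMI and not for nuclei that express the gene. Retnla had 136 UMIs in 24 nuclei, against 0 UMIs in other macrophage nuclei. With every nucleus thinned to 1000 UMIs, Lyve1 was seen in 8.38% and F13a1 in 65.9% of resident gene nuclei, and F13a1 in 5.62% of the others. Epithelial nuclei, which should lack these genes, held 1 UMI of F13a1 and 7 of Mrc1 in 161 nuclei of both suffixes, at a median of 4189 UMIs per nucleus. They were chosen for few macrophage UMIs, and 143 of them were of suffix 1. The 18 of suffix 2 held 0 UMIs of F13a1 (exact upper limit 36.2 CPM) and 1 of Mrc1 (9.81 CPM, 0.248 to 54.6). They are too few, and too selected, to measure carry-over in suffix 2.

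Ednrb, a marker of the name that was not used to choose nuclei, was higher as well. The markers were listed with earlier results of these data known, so its level is a description too. It had 184 UMIs in 30 resident gene nuclei (279 CPM), against 3 UMIs in 2 other macrophage nuclei (5.46 CPM), a ratio of 51.2 (17.2 to 250.4), and 16.3% of its UMIs were in a single nucleus. In suffix 1 the genes other than Mrc1 and F13a1 were nearly absent, so the name of a F13a1 Mrc1 Lyve1 resident type was not borne out. All 45 nuclei had Mrc1, with 249 UMIs (1484 CPM), against 107 UMIs in 85 other macrophage nuclei (42.5 CPM), and 11 had F13a1 (46 UMIs, 274 CPM, against 1.19 CPM in the others). Cd163 had 1 UMI there, and Lyve1, Retnla, Ednrb and Folr2 had 0 UMIs each. For nuclei with a UMI, the floor of 3 nuclei is 6.67% of the 45 and the exact upper limit 7.87%. The nuclei of suffix 1 are Mrc1 nuclei, and no statement on Lyve1 or Ednrb below covers them.

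**Figure D2:**
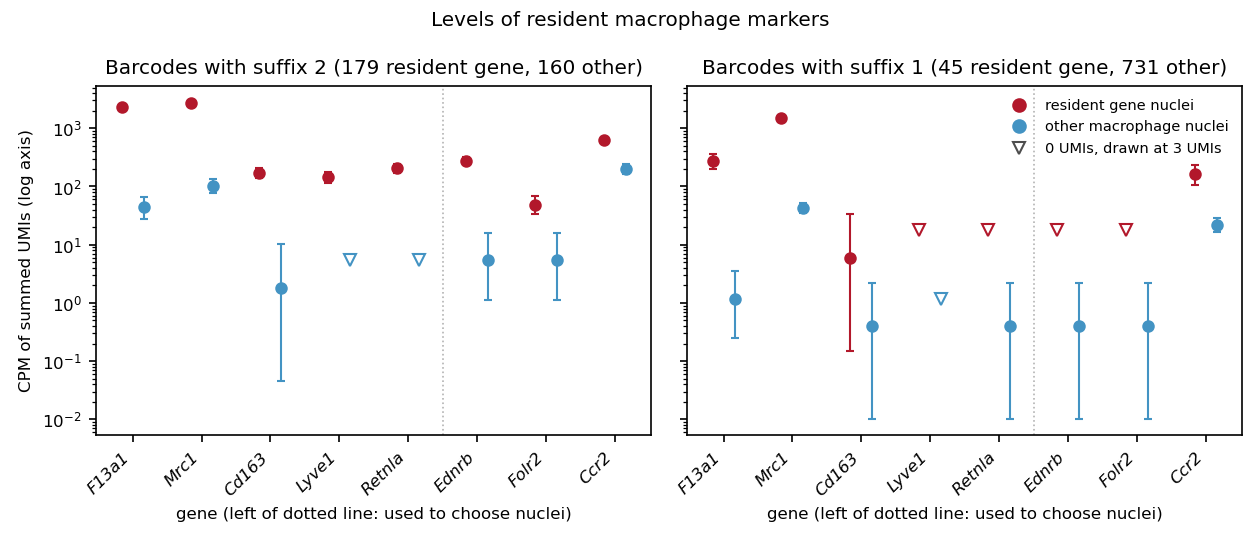
CPM of summed UMIs (log axis) of 8 genes in resident gene nuclei and other macrophage nuclei of each barcode suffix, with exact 95% intervals for counting error. Open triangles stand for 0 UMIs and are drawn at the level of 3 UMIs. In suffix 2 every gene is higher in resident gene nuclei, Ednrb at 279 CPM against 5.46 CPM in the others, and in suffix 1 this is seen for Mrc1, F13a1 and Ccr2, while Lyve1, Retnla, Ednrb and Folr2 are at 0 UMIs in resident gene nuclei.

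The nuclei differed widely in how many rule UMIs they held. The median was 12 in suffix 2 (lowest 3, highest 240) and 4 in suffix 1 (lowest 3, highest 24). Of the 179 nuclei of suffix 2, 36 showed a single rule gene, 90 showed 2, 35 showed 3, 13 showed 4 and 5 showed all 5. In suffix 1, 34 of 45 showed a single gene. At the threshold itself, 30 nuclei of both suffixes had exactly 3 rule UMIs, 12 of them in suffix 1, and 45 other macrophage nuclei had 2, 23 of them in suffix 1. Pooled over suffixes, the resident macrophage list described below had a ratio of 0.808 (0.667 to 0.978) and the monocyte list one of 1.69 (1.36 to 2.12), beside 4.90% of 2573 genes higher and 4.35% lower. Within suffix 2 the ratios were 0.636 (0.480 to 0.837) for the resident and 1.80 (1.41 to 2.30) for the monocyte list, and within suffix 1 they were 1.06 (0.802 to 1.39) and 1.65 (0.959 to 2.88).

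To describe levels without the UMIs that chose the nuclei, each UMI was placed at random in 1 of 2 sets, nuclei were chosen on 1 set and measured on the other. This chose 151 nuclei, all of which were among the 224. That overlap was nearly fixed in advance, since a nucleus that passes the UMI minimums on part of its UMIs passes them on all. In suffix 2 the held-out level of F13a1 was 2701 CPM in chosen nuclei, against 127 CPM in nuclei not chosen. Held-out Mrc1 was 3008 CPM in chosen nuclei and 331 CPM in those not chosen, Lyve1 165 CPM in chosen nuclei and 0 in those not chosen, and Ednrb 307 CPM in chosen nuclei and 10.6 CPM in those not chosen. In suffix 1, held-out Mrc1 was 1869 CPM in chosen nuclei and 80.6 CPM in those not chosen.

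In suffix 2, 14 of the 18 further resident macrophage genes with enough counts were higher in resident gene nuclei and 2 were lower. Ednrb is among the higher ones. The count compares with 7.77% of all 6975 genes tested higher and 8.80% lower, where a gene was tested if at least 10 UMIs were expected in the smaller group. The list summed to 5017 CPM in resident gene nuclei and 1679.7 CPM in other macrophage nuclei, a ratio of 2.99 (2.78 to 3.22). The median log2 ratio of its genes was 3.27, against 0.00 over all genes tested.

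The first of these genes are lectins and scavenger receptors. The list of scavenger and dying-cell receptors shares Gas6 and Colec12 with the resident list. It had 3 higher (Msr1, Cd36 and the bridging factor Gas6) and 3 lower (Colec12, Havcr2 and Itgav) of 15. Its summed ratio was 0.942 (0.902 to 0.983). Folr2, the folate receptor beta, had 32 UMIs in 19 resident gene nuclei (48.6 CPM), against 3 UMIs in 3 other macrophage nuclei (5.46 CPM). Clec10a, a lectin for galactose, had 103 UMIs in 40 resident gene nuclei (156 CPM), against 7 UMIs in 5 other macrophage nuclei (12.7 CPM). Mgl2, its close relative, had 30 UMIs in 8 resident gene nuclei and 0 elsewhere in suffix 2, at least 8.34-fold higher against a floor of 3 UMIs per group, with an exact lower limit of 6.38 for the ratio. Near-identical copies such as these may share reads. Siglec1, the sialic acid receptor sialoadhesin, had 49 UMIs in resident gene nuclei and 2 in the others, and Fcna, the soluble lectin ficolin A, 40 UMIs in resident gene nuclei and 2 in the others. Stab1, a scavenger receptor, had a ratio of 1.66 (1.36 to 2.03), short of 2-fold. The 2 lower genes were Colec12, a collectin scavenger receptor, with 11 UMIs in 5 resident gene nuclei (16.7 CPM), against 96 UMIs in 7 other macrophage nuclei (175 CPM), and Slc40a1, the iron exporter ferroportin, with 5 UMIs in resident gene nuclei and 19 in the others. Igf1, a growth factor of resident macrophages, stood at 146 CPM in resident gene nuclei and 180.2 CPM in other macrophage nuclei, a ratio of 0.809 (0.604 to 1.08).

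Among regulators, Maf, a transcription factor of resident macrophages, had 733 UMIs in 140 resident gene nuclei (1113 CPM), against 99 UMIs in 51 other macrophage nuclei (180.2 CPM), a ratio of 6.18 (5.0 to 7.70). Rbpj, the nuclear effector of Notch signalling, had a ratio of 3.65 (3.26 to 4.09) and Klf4 one of 2.68 (1.96 to 3.71). Spi1, which encodes PU.1, stood at 0.787 (0.639 to 0.968). The lower ones, by ratio, were Runx3 (0.351, 0.258 to 0.473), Runx2 (0.396, 0.283 to 0.549) and Tcf7l2 (0.431, 0.340 to 0.543). Of 22 transcription factors tested, 3 were higher and 3 lower. Maf is also counted among the further resident genes above.

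Among secreted factors, 9 of 18 were higher and 5 lower. Gas6, given below, is also counted among the further resident genes above. The chemokine Ccl6 had 448 UMIs in 87 resident gene nuclei (680.1 CPM), against 26 UMIs in 21 other macrophage nuclei (47.3 CPM), a ratio of 14.4 (9.68 to 22.2). Ccl9 had a ratio of 9.49 (6.24 to 15.1), and Pf4, also called Cxcl4, one of 19.7 (8.85 to 54.7). Ccl8 had 35 UMIs in 14 resident gene nuclei and 0 in other macrophage nuclei of suffix 2, at least 9.73-fold higher against the floor of 3 UMIs, with an exact lower limit of 7.50. Gas6, which bridges dying cells to the receptors Axl and Mertk, had 165 UMIs in 69 resident gene nuclei (250.5 CPM), against 20 UMIs in 15 other macrophage nuclei (36.4 CPM). The lower factors were Gdf15, a stress-induced cytokine of the TGF-beta family (12.1 CPM in resident gene nuclei and 209 CPM in the others), Osm, oncostatin M (18.2 CPM in resident gene nuclei and 89.2 CPM in the others), Pdgfb, a platelet-derived growth factor (57.7 CPM in resident gene nuclei and 242 CPM in the others), Hgf, hepatocyte growth factor (44.0 CPM in resident gene nuclei and 147 CPM in the others), and Vegfa, an angiogenic factor (44.0 CPM in resident gene nuclei and 104 CPM in the others).

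Outside the lists, the genes that stood highest by the lower bound of the ratio included Lrg1, a secreted leucine-rich glycoprotein, with 76 UMIs in 29 resident gene nuclei and 0 in others (at least 21.1-fold against the floor, exact lower limit 16.8), and Mctp2, a membrane protein with C2 domains, with 71 UMIs in 21 nuclei and 0 in others (at least 19.7-fold against the floor, exact lower limit 15.6). Alox5, the 5-lipoxygenase of leukotriene synthesis, had 48 UMIs in 31 resident gene nuclei and 1 UMI in the others. Saa3, an acute-phase serum amyloid, had 98 UMIs in 19 resident gene nuclei and 3 in 3 of the others. Ms4a8a, a membrane protein of the MS4A family, had 100 UMIs in 39 resident gene nuclei and 5 in 3 of the others. Other leaders came from few nuclei. Erc2, a protein of nerve terminals, had 41 UMIs in 4 nuclei, C6, a late complement component, 42 in 9, and Lyz1 70 in 8, 37.1% of them in a single nucleus. Lyz1 is a near copy of Lyz2, so its reads may be shared with that gene, which had a ratio of 4.36 (3.81 to 5.02).

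Monocyte genes were higher in resident gene nuclei as well, 7 of 8 in suffix 2, with a summed ratio of 2.57 (2.35 to 2.82). Ccr2, the receptor that draws monocytes from marrow into tissue, had 417 UMIs in 84 resident gene nuclei (633 CPM), against 111 UMIs in 36 other macrophage nuclei (202 CPM), a ratio of 3.13 (2.54 to 3.90). Vcan, versican, had 91 UMIs in resident gene nuclei and 6 in the others, a ratio of 12.7 (5.59 to 35.4), and Fn1, fibronectin, 946 CPM in resident gene nuclei and 451 CPM in the others. Itgam, which encodes CD11b, the protein that nuclei were sorted against, stood at 566 CPM in resident gene nuclei and 244 CPM in other macrophage nuclei. Ms4a4c had a ratio of 1.46 (0.820 to 2.67), and Ly6c2 had 1 UMI in each group.

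Genes of tumour-associated macrophages were lower, 6 of 7 in suffix 2, with 0 higher and a summed ratio of 0.359 (0.309 to 0.415). Mmp12, a macrophage elastase, had 13 UMIs in 10 resident gene nuclei (19.7 CPM), against 116 UMIs in 23 other macrophage nuclei (211 CPM). Cx3cr1, the fractalkine receptor, stood at 141 CPM in resident gene nuclei and 293 CPM in the others, and Bhlhe41, a transcriptional repressor, at 15.2 CPM in resident gene nuclei and 104 CPM in the others. Vcam1, the surface marker of the sort, was nearly equal in summed level, with 72.9 CPM in resident gene nuclei and 69.2 CPM in other macrophage nuclei. Its ratio was 1.05 (0.674 to 1.66), and 39.5% of the UMIs of the other macrophage nuclei were in 1 nucleus. Vcam1 in suffix 1 stood at 149 CPM (96.4 to 220) in resident gene nuclei and 243 CPM (225 to 263) in the others. There, 32.0% of the UMIs of resident gene nuclei were in 1 nucleus. In suffix 1 the tumour macrophage list had a ratio of 1.09 (0.966 to 1.23), with 1 gene of 6 higher and 0 lower, and the interval holds 1. In 1 nucleus lay 67 Mmp12 UMIs, 89.3% of those of its resident gene nuclei. Without that nucleus the list had a ratio of 0.728 (0.627 to 0.842), with 0 genes higher and 1 lower.

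Lipid-associated genes split within the list, 2 higher and 5 lower of 15 in suffix 2. Gpnmb, a transmembrane glycoprotein of lipid-laden macrophages, was the lowest of the genes ranked by the upper bound of its ratio, with 7 UMIs in 7 resident gene nuclei (10.6 CPM), against 360 UMIs in 32 other macrophage nuclei (655 CPM), a ratio of 0.0162 (0.00647 to 0.0338). Cd9, a tetraspanin, Lgals3, galectin 3, Fabp5, a fatty acid carrier, and Spp1, osteopontin, had ratios of 0.175, 0.252, 0.268 and 0.398. The higher genes were Lpl, lipoprotein lipase, at 5.58 (3.10 to 10.9) and Cd36, a fatty acid receptor, at 3.77 (2.69 to 5.40). Other low genes rested on single nuclei of the other macrophage nuclei: 99.1% of their Pde10a UMIs, 98.3% of Dlc1, 100% of Col5a2 and 72.6% of Tmem267 were in 1 nucleus. Ccl5, a chemokine of T cells, NK cells and macrophages, had 0 UMIs in resident gene nuclei and 56 in 6 of the others. Apbb2, an adaptor of the amyloid precursor protein, was spread over more nuclei, with 24 UMIs in 10 resident gene nuclei (36.4 CPM), against 400 UMIs in 78 other macrophage nuclei (728 CPM).

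Inflammatory genes of the NF-kB pathway were lower in resident gene nuclei of both libraries, 8 of 15 in suffix 2 with a summed ratio of 0.592 (0.551 to 0.636), and 10 of 14 in suffix 1 with 0.427 (0.379 to 0.479), and 0 were higher in either. Suffix 1 had 3.41% of 3607 genes higher and 4.16% lower. Tnf, tumour necrosis factor, had 72.9 CPM in resident gene nuclei and 180.2 CPM in the others in suffix 2 and 23.8 CPM in resident gene nuclei and 145 CPM in the others in suffix 1. Nlrp3, the inflammasome sensor, had ratios of 0.431 in suffix 2 and 0.336 in suffix 1, and Rel, an NF-kB subunit, 0.373 and 0.332. Il1b, interleukin 1 beta, had ratios of 0.905 (0.647 to 1.27) in suffix 2 and 0.282 (0.180 to 0.422) in suffix 1. Immediate early genes had 4 of 13 lower in suffix 2, with a summed ratio of 0.682 (0.644 to 0.722), and 4 of 11 in suffix 1, with 0.617 (0.559 to 0.680). Nr4a1, a nuclear receptor, was lower in both, at 0.486 and 0.329.

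Heat shock genes were lower in suffix 1 and not in suffix 2. In suffix 1, 6 of 8 were lower, with a summed ratio of 0.353 (0.312 to 0.398), and in suffix 2, 0 of 9 were lower, with 1.09 (1.02 to 1.17). The chaperone Hsph1 had 1 UMI in 45 resident gene nuclei of suffix 1 (5.96 CPM), against 1256 UMIs in 214 of 731 other macrophage nuclei (499 CPM), and 124 CPM in resident gene nuclei and 102 CPM in the others in suffix 2. Hsp90aa1 had 614 CPM in resident gene nuclei and 1763 CPM in the others in suffix 1, and 52.4% of the UMIs of the resident gene nuclei were in 1 nucleus. Without that nucleus the list had a ratio of 0.283 (0.246 to 0.324). The difference between the libraries was not tested, since each is a single library.

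**Figure D3:**
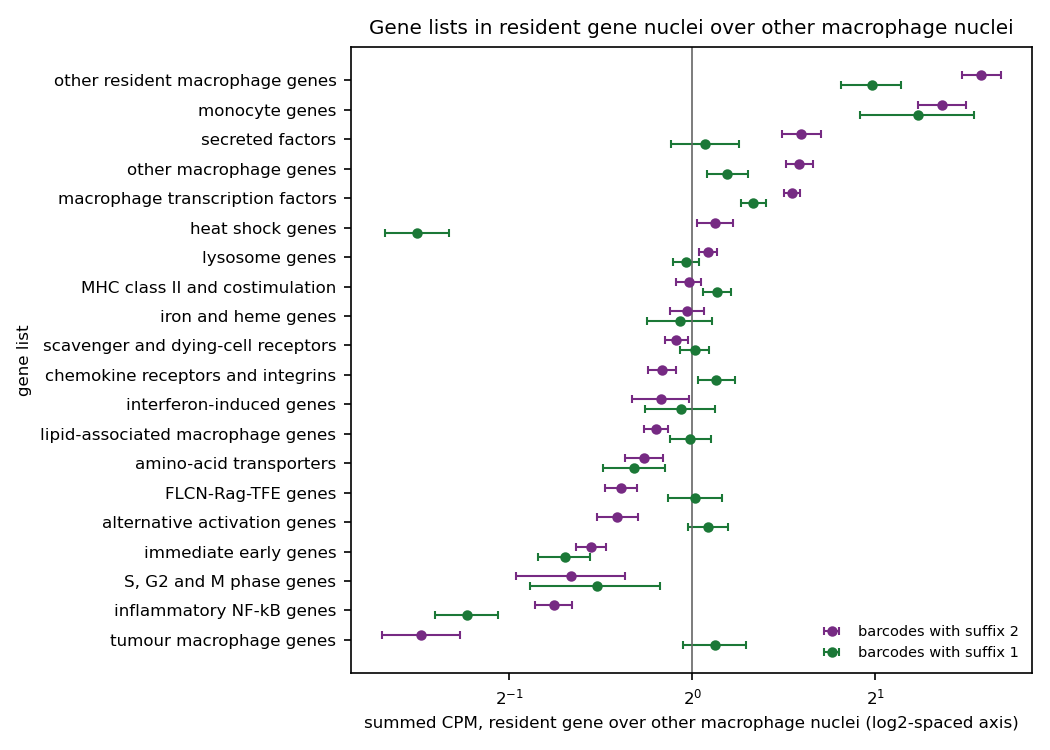
Ratio of summed CPM of 20 gene lists, resident gene nuclei over other macrophage nuclei, within each barcode suffix (log2-spaced axis, exact 95% intervals for counting error). Resident and monocyte lists lie above 1 and inflammatory and immediate early lists below 1 in both libraries, and the tumour macrophage list lies at 0.359 in suffix 2 and at 1.09 in suffix 1, where its interval holds 1.

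MHC class II and costimulation genes stayed within 2-fold in both libraries: 0 of 10 were higher and 0 lower in suffix 2, with a summed ratio of 0.987 (0.940 to 1.04), and the ratio in suffix 1 was 1.10 (1.04 to 1.16). Lysosome genes had 1.06 (1.03 to 1.10) in suffix 2 and 0.977 (0.930 to 1.03) in suffix 1, with 1 of 19 higher in suffix 2, the protease Ctsl (2.46, 1.90 to 3.21), and 1 lower. Iron and heme genes had 0.980 (0.919 to 1.05) in suffix 2, with the transferrin gene Trf at 2.74 and the heme transporter Slc48a1 at 3.34. Genes of the FLCN-Rag-TFE pathway, which ties amino acids in the lysosome to transcription, had 0.764 (0.719 to 0.812) in suffix 2 and 1.01 (0.912 to 1.12) in suffix 1. Fnip2, a partner of folliculin, was the only gene of 12 past 2-fold in suffix 2, at 666 CPM in resident gene nuclei and 1678 CPM in the others. Amino-acid transporter genes had 0.834 (0.777 to 0.896) and 0.803 (0.713 to 0.902), with 3 lower in each library, and Slc38a2, a transporter of small neutral amino acids, lower in both (0.470 and 0.467).

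The 45 nuclei of suffix 1 shared part of this picture. Of 6 further resident genes tested, 3 were higher and 0 lower, with a summed ratio of 1.97 (1.76 to 2.21). These were Maf at 3.39 (2.51 to 4.51), Gas6 at 3.12 (1.70 to 5.39) and Stab1 at 2.32 (1.85 to 2.89). Of 4 monocyte genes tested, Ccr2 and Fn1 were higher, Ccr2 with 27 UMIs in 9 resident gene nuclei (161 CPM), against 56 UMIs in 33 other macrophage nuclei (22.2 CPM). Gda, guanine deaminase, had 32 UMIs in 8 resident gene nuclei (191 CPM), against 52 UMIs in 28 other macrophage nuclei (20.6 CPM), with 46.9% of the UMIs of resident gene nuclei in 1 nucleus. Bank1, a scaffold protein of B cells, had 20 UMIs in 8 resident gene nuclei and 6 in 3 of the others, and 8 B cell genes together had 20 UMIs in resident gene nuclei and 23 in the others, so Bank1 supplied all 20 in resident gene nuclei. Emp1, a tetraspan membrane protein, had 87 UMIs, 74.7% of them in 1 nucleus.

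Further leading genes of suffix 1, given with their ratios, were Spon1, an extracellular matrix protein (5.07, 3.85 to 6.61), Cd38, an enzyme that breaks down NAD (6.36, 3.82 to 10.3), Aoah, which deacylates bacterial lipopolysaccharide (4.68, 3.33 to 6.49), and Ptprm, a receptor tyrosine phosphatase (4.43, 3.09 to 6.24). Among the lowest, Ifrd1, a transcriptional co-regulator, had 19 UMIs in 10 resident gene nuclei (113 CPM), against 1745 UMIs in 322 other macrophage nuclei (693 CPM). Nr4a3, a nuclear receptor of the immediate early list, had 3 UMIs in resident gene nuclei and 427 in the others (ratio 0.105, 0.0217 to 0.310), and Frmpd4, a scaffold protein described in neurons, 1 UMI in resident gene nuclei and 857 in 120 of the others.

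Over all genes tested in a library, 3.41% of 3607 were higher and 4.16% lower in suffix 1, and 7.77% of 6975 were higher and 8.80% lower in suffix 2. Of 3565 genes tested in both libraries, 120 were higher in suffix 1, 185 in suffix 2 and 51 in both. The 51 are 42.5% of the 120 and 27.6% of the 185. They include Ccr2, Fn1, Maf, Gas6, Gda, Ccl9, Lyz2, Lpl and Cd38. Of the 3565, 141 were lower in suffix 1, 256 in suffix 2 and 53 in both. The 53, which are 37.6% of the 141 and 20.7% of the 256, include Tnf, Nlrp3, Tnfaip3, Rel, Ccl4, Nr4a1, Rsad2 and Slc38a2. These names were picked from the shared genes after their values were seen.

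Nuclei with at least 3 UMIs of 20 S, G2 and M phase genes made up 8.94% (5.20 to 14.1) of resident gene nuclei and 15.6% (10.4 to 22.2) of other macrophage nuclei in suffix 2, and 17.8% (8.0 to 32.1) and 18.3% (15.6 to 21.3) in suffix 1. The intervals of these shares overlap in both libraries. The summed level of the 20 genes had a ratio of 0.631 (0.513 to 0.776) in suffix 2 and 0.698 (0.542 to 0.885) in suffix 1. Only 2 of the genes were tested in each library, with 1 lower in suffix 2 and 0 in suffix 1. Markers of lymphocytes and stroma were counted as UMIs. In suffix 2, resident gene nuclei and the others held 1 and 8 UMIs of 10 T cell genes, 0 and 12 of 8 NK cell genes, 44 and 33 of 8 B cell genes, 9 and 51 of 8 endothelial genes, and 36 and 112 of 8 fibroblast genes. Of the 2 B cell genes tested there, 1 was lower and 1 higher, the latter Bank1, which was higher in suffix 1 as well. The 17 epithelial genes outside the rule summed to 1164 CPM in resident gene nuclei and 1221 CPM in the others of suffix 2. In suffix 1 they summed to 1686 and 2185 CPM. Only 1 of the 17 had enough counts to be tested in suffix 2, and 2 in suffix 1, so the sums do not stand for epithelial genes at large. The 5 epithelial genes of the rule, which caps them, stood at 38.0 and 32.8 CPM in suffix 2. Dendritic cell genes stood at 83.5 CPM in resident gene nuclei and 85.5 CPM in the others of suffix 2. Their part in the results was not tested.

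Within the 179 nuclei of suffix 2, those with a Lyve1 UMI differed from the rest in many genes. All 29 also had F13a1 and Mrc1, 18 had Ednrb, 12 Retnla and 10 Folr2, and 0 had Cx3cr1. Among all 179 nuclei, 142 had F13a1, 173 Mrc1, 30 Ednrb, 24 Retnla, 19 Folr2 and 50 Cx3cr1. Lyve1, F13a1, Mrc1 and Retnla are rule genes, so the rule itself in part sets how often they are found together. A Lyve1 UMI is easier to catch in deep nuclei, and the 29 had a median of 4784 UMIs against 3153 in the 150 without, so the levels are given as CPM. The 150 may include nuclei in which Lyve1 was missed. Of 14 further resident genes tested, 10 were higher with Lyve1 and 0 lower, beside 7.40% of 3217 genes higher and 8.73% lower, and the summed ratio was 2.49 (2.32 to 2.67). Ednrb had 139 UMIs in 18 nuclei with Lyve1 (980.2 CPM), against 45 UMIs in 12 nuclei without (87.0 CPM), a ratio of 11.3 (7.99 to 16.1). Fcna had a ratio of 9.61 (4.66 to 21.3), Clec10a 6.78 (4.46 to 10.5) and Maf 2.70 (2.33 to 3.13). Among secreted factors, 7 of 11 were higher and 1 lower: Ccl6 stood at 2017 CPM in nuclei with Lyve1 and 313 CPM in nuclei without, Pdgfc, a platelet-derived growth factor, at 896 CPM in nuclei with Lyve1 and 176 CPM in nuclei without, and Cxcl16 at 7.05 CPM in nuclei with Lyve1 and 195 CPM in nuclei without.

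MHC class II and costimulation genes were low in the nuclei with Lyve1: 7 of 7 tested were lower, with a summed ratio of 0.274 (0.240 to 0.311). Ciita, the factor that switches on class II genes, had 1 UMI in the nuclei with Lyve1 (7.05 CPM), against 179 UMIs in 64 nuclei without (346 CPM), a ratio of 0.0204 (0.000513 to 0.115). H2-Aa had a ratio of 0.253 (0.180 to 0.346) and Cd74, the invariant chain, 0.296 (0.228 to 0.378). Chemokine receptors and integrins were lower for 7 of 15 and higher for 1, the chemerin receptor Cmklr1 (2.34). Cx3cr1 had 0 UMIs with Lyve1 and 93 in 50 nuclei without, at least 8.50-fold lower against a floor of 3 UMIs per group, with an exact upper limit of 0.147 for the ratio. Itgb5, an integrin chain that binds vitronectin, had 2 UMIs in nuclei with Lyve1 and 192 in nuclei without (ratio 0.0380, 0.00457 to 0.139), while Itgam was level (1.01, 0.781 to 1.30). Outside the lists, Hrh1, the histamine H1 receptor, had 24 UMIs in nuclei with Lyve1 and 3 in nuclei without and Mctp2 56 UMIs in nuclei with Lyve1 and 15 in nuclei without, so most UMIs of these leaders lay in the smaller group. Arhgap24, which turns off Rac, had 21.2 CPM in nuclei with Lyve1 and 905 CPM in nuclei without, and Extl3, an enzyme of heparan sulphate synthesis, 0 UMIs in nuclei with Lyve1 and 143 in 69 nuclei without, at least 13.1-fold lower against the same floor, with an exact upper limit of 0.0953.

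A Ccr2 UMI was seen in 84 of the 179 nuclei and went with the opposite pattern for the MHC class II and costimulation list. Of its genes, 8 of 10 were higher with Ccr2 and 0 lower, with a summed ratio of 3.03 (2.81 to 3.27). Over all 5401 genes tested, 5.18% were higher and 4.55% lower. H2-Eb1 stood at 1966 CPM in nuclei with Ccr2 and 535 CPM in nuclei without and Ciita at 438 CPM in nuclei with Ccr2 and 114 CPM in nuclei without. Of the monocyte genes other than Ccr2, 4 of 6 were higher: Vcan had 84 UMIs in 16 nuclei with Ccr2 (259 CPM), against 7 UMIs in 3 nuclei without (20.9 CPM), Fn1 a ratio of 4.65 (3.79 to 5.75), Emb 3.39 (2.29 to 5.14) and S100a4 3.24 (2.19 to 4.92). Further resident genes were lower for 7 of 17 and higher for 1, which was Mgl2 with 30 UMIs in 8 nuclei with Ccr2 and 0 in nuclei without. The chemokine Ccl8 had 1 UMI with Ccr2 and 34 without, a ratio of 0.0303 (0.000746 to 0.181). Pdgfc had 145 CPM in nuclei with Ccr2 and 512 CPM in nuclei without. The splits overlapped: 13 of the 29 nuclei with Lyve1 also had Ccr2, and 79 of the 179 had neither. Nuclei with an H2-Aa UMI, 118 of the 179, had Ccr2 at 838 CPM against 139.6 CPM in the 61 without, beside 3.85% of 4005 genes higher and 3.00% lower. Of the 30 nuclei with Ednrb, 0 had Cx3cr1 and 12 had Ccr2. Against the 149 without Ednrb, 9 of 14 further resident genes were higher and 0 lower, and 6 of 7 MHC class II and costimulation genes were lower. Over all 3352 genes tested, 6.56% were higher and 8.56% lower.

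**Figure D4:**
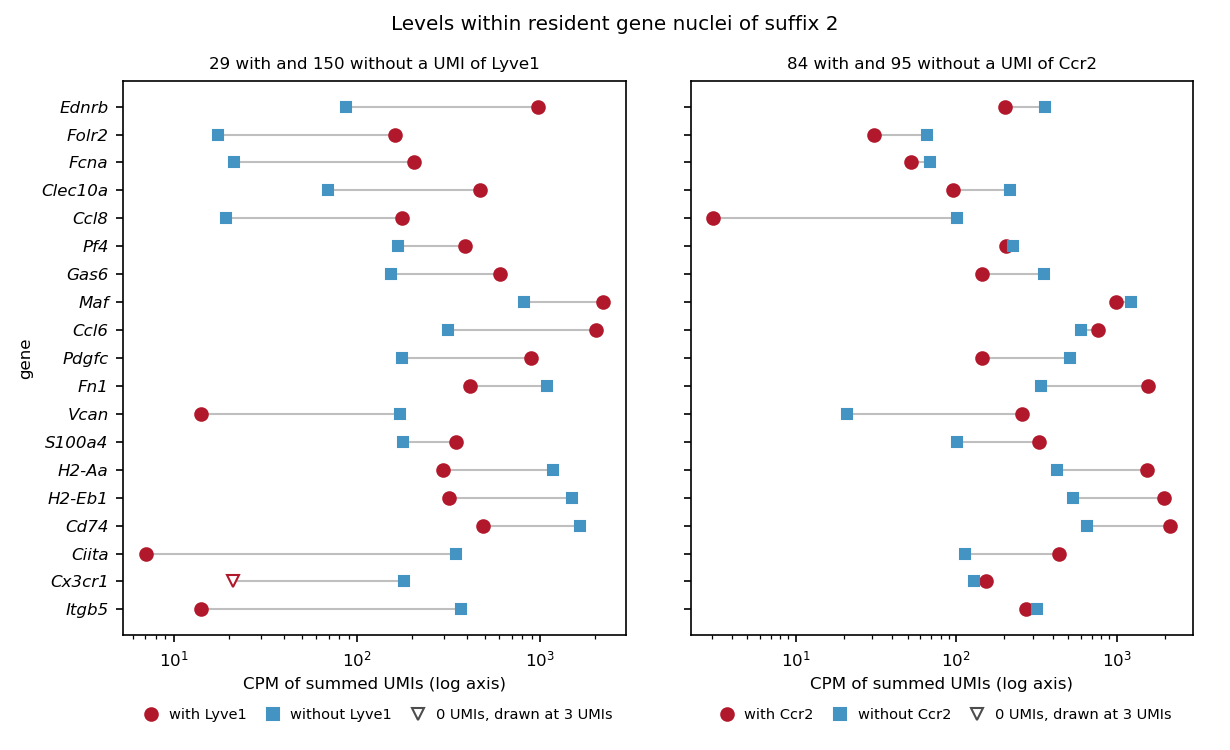
CPM of summed UMIs (log axis) of 19 genes in resident gene nuclei of suffix 2, split by a UMI of Lyve1 (left, 29 with and 150 without) and of Ccr2 (right, 84 with and 95 without). Circles are nuclei with and squares nuclei without the gene, and the open triangle marks 0 UMIs of Cx3cr1, drawn at 3 UMIs. H2-Aa is lower with Lyve1 (296 CPM with and 1172 CPM without) and higher with Ccr2 (1556 CPM with and 428 CPM without).

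Y-linked transcripts were seen in most nuclei of each of these sets. A Y-linked UMI was seen in 25 of 29 nuclei with Lyve1 (86.2%), 29 of 30 with Ednrb (96.7%), 67 of 84 with Ccr2 (79.8%) and 67 of 79 with neither Lyve1 nor Ccr2 (84.8%). Xist was seen in 0 nuclei with Lyve1 or Ednrb and in 1 with Ccr2. By variance over mean of UMIs thinned to 1000 per nucleus, the genes that varied most among the 179 nuclei were the nuclear RNA Malat1 (10.4), Fn1 (6.86), Ifrd1 (4.62) and Kcnip4 (4.52), followed by Rbpj at 4.17, Retnla at 4.02, Plcb1 at 3.95, Cd86 at 3.89 and Il1b at 3.80, against a median of 1.10 over 4072 genes. Il1b had a UMI in 16 thinned nuclei and at most 9 in any of them.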

How the data were processed

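The authors deposited 1 matrix of UMI counts per gene and barcode, with 32285 genes and 1838 barcodes of 2 suffixes, holding 7381447 UMIs. Per the submitters' processing notes, the reads went through Cell Ranger 5.0 against mm10. Per the file headers, the version was 5.0.1. Which annotation was used, whether introns were counted and how barcodes were called is not given in the sources used here.

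Levels are CPM of counts summed over the nuclei of a group. Genes were tested where at least 10 UMIs were expected in the smaller group at the mean CPM of both, and called past 2-fold. Intervals are exact at 95%: Poisson for CPM, conditional binomial for ratios, Clopper-Pearson for shares. They cover counting error only, and a floor is 3 counts. No p-value was computed, since cells are not replicates and 0 of 2 suffixes could be mapped to a genotype. The ratio table was tested on simulated data.

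Nuclei were thinned to 1000 UMIs with a fixed seed. Scrublet in scanpy 1.11.5, run per suffix on barcodes with at least 1000 UMIs, called 0 of 1094 doublets in suffix 1 and 4 of 398 (1.01%) in suffix 2, 3 of them resident gene nuclei. They were kept, and why none was called in suffix 1 was not tested. Genes beyond the lists were named from the 12 with the highest lower bound and the 12 with the lowest upper bound of the ratio in each comparison, leaving out rule, predicted, ribosomal and mitochondrial genes. The members and the gene lists were chosen with earlier results of these data known. Clec7a and Mx2 were not among the gene symbols used. Tables were computed in Python 3.11.15 with pandas 2.3.3, scipy 1.17.1 and numpy 2.4.6, and drawn with matplotlib 3.10.9. The alternatives were other UMI minimums, the rule on thinned UMIs, no doublets, no deep nuclei, each suffix alone, mean CPM over nuclei, held-out UMIs, another scaling and other count minimums. A split by Ednrb, suffix 1 lists without 1 nucleus, and the threshold comparison within each suffix were added after seeing the data. Some single genes of the lists are not reported here.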

Additional observations from a re-analysis of the deposited data

Results flagged for a closer look

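The heat shock list lay on opposite sides of 1 in the libraries: its summed level in resident gene nuclei over other macrophage nuclei was 0.353 in suffix 1 and 1.09 in suffix 2, and neither 95% counting interval held 1, though 0 of its 9 genes passed 2-fold in suffix 2. The chemokine receptor and integrin list stood at 1.10 in suffix 1 and 0.892 in suffix 2 in the same comparison, with intervals on opposite sides of 1. The difference between the libraries was not tested in either case, since each suffix is a single library.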

How the results depend on the processing

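The share of resident gene nuclei followed the UMI minimum. With 2 or more rule UMIs it was 59.3% in suffix 2 and 8.76% in suffix 1, with 5 or more 44.8% and 2.71%, and with the rule on thinned UMIs 39.1% and 3.18%, for 109 nuclei in place of 224. The pooled ratio of the further resident genes, 3.79, was 4.21 with 5 or more rule UMIs, 4.39 with the rule on thinned UMIs, 3.46 without the 5% deepest nuclei, 3.41 as mean CPM over nuclei, 4.30 on held-out UMIs, 2.99 in suffix 2 alone and 1.97 in suffix 1 alone. The count of genes past 2-fold, 1231 of 8141 pooled, was 273 of 3607 in suffix 1 alone, and 633 with 30 or more expected UMIs, a minimum that fewer genes pass. The share fell in suffix 1 as well, to 3.41% higher and 4.16% lower, from 7.21% and 7.91% pooled. The pooled tumour macrophage list, 0.441, was 1.09 (0.966 to 1.23) in suffix 1 alone, an interval that holds 1, and 0.728 there without the nucleus with the most Mmp12, an alternative chosen after seeing the data. A named gene without UMIs in a group, or under the count minimum, has no value under that alternative. Scaling to the median ratio shifted log2 ratios by -0.05. A split by Ednrb in place of Lyve1 was a choice made after seeing the data. With it, the MHC class II and costimulation list had a ratio of 0.367 (0.328 to 0.409) in the 30 nuclei with Ednrb over the 149 without. The split by Lyve1 gave 0.274 (0.240 to 0.311). No paired analysis was possible because neither suffix could be mapped to a sample and each is 1 library. Depth limits the 45 nuclei of suffix 1 most: 0 UMIs of a gene there have a floor of 17.9 CPM (3 UMIs) and an exact upper limit of 22.0 CPM.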
